A study of Mus musculus with 38 samples.

Results

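The effect of losing Foxa1 was compared with the effect of losing Foxa2 in organoids grown from mouse lung adenocarcinomas, using all 20 bulk RNA-seq libraries of single-floxed organoids out of the 38 libraries of the series. All 20 were taken, and every gene that passed a filter on low counts was tested. Many of the genes described below were picked by their values. The quantity tested for each gene was a difference of effects on the log2 scale, namely the change with 4-hydroxytamoxifen (4-OHT) in Foxa1-floxed organoids minus the same change in Foxa2-floxed organoids. A value above 0 means that the gene ended lower, relative to vehicle, after Foxa2 loss than after Foxa1 loss.

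Every line carried p53frt (a Trp53 allele that Flp recombinase removes) and Rosa-FSF-CreERT2 (a Cre recombinase that Flp makes available and 4-OHT activates), on a mixed 129/B6 background. To these, lines 1552A, 1552B and 1552C added Foxa1flox, and lines 1267B and 1526C added Foxa2flox. Cultures received 2 uM 4-OHT or ethanol vehicle for 72 h. There were 6 vehicle and 6 4-OHT libraries with Foxa1 floxed (2 of each per line) and 4 and 4 with Foxa2 floxed (2 of each per line). No source used here gives the age of the mice or the time of RNA collection. Each line came from 1 tumour, so libraries repeated within a line do not add tumours, and the names 1552A, 1552B and 1552C share a number whose meaning the labels do not give. All 20 libraries come from lines with a floxed Foxa gene, so effects of 4-OHT or of active Cre itself cannot be told apart from those of Foxa loss within 1 genotype. Any such effect that is equal in both genotypes cancels in the difference.

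FOXA1 and FOXA2 are forkhead transcription factors that bind closely similar DNA sequences and can open compacted chromatin. In the embryo they act partly in place of each other in endoderm-derived organs, among them the lung, liver, pancreas and gut. In lung epithelium and in lung adenocarcinoma they act beside NKX2-1, the lineage factor of lung epithelium, on alveolar genes such as those of surfactant, and in tumours that have lost NKX2-1 they are known for driving a gastric programme.

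Libraries held 18471187 to 33197038 counts, and mitochondrially encoded transcripts took 1.09% to 3.73% of them. Levels are given in CPM, a gene's counts per 1e6 counts of its library after TMM scaling of library sizes (the edgeR default). Markers of tumour epithelium were high in every library (Epcam from 238 to 661 CPM), whereas Ptprc, the pan-leukocyte marker, did not exceed 1.17 CPM and Cd3e, Adgre1 and Col3a1 stayed below 0.1 CPM. Other markers were higher, with Cd68 from 3.66 to 46.4 CPM and highest values of 6.57 CPM for Csf1r, 7.24 CPM for Cdh5 and 3.43 CPM for Col1a1, and the 15 leukocyte markers summed to at most 144.6 CPM. The summed level of the 12 fibroblast markers reached 15.04 CPM in 1 Foxa2-floxed 4-OHT library and at most 4.46 CPM in the Foxa1-floxed libraries. Foxa2-floxed 4-OHT replicate 2 (line 1267B) stood apart from all other libraries, since its 28 interferon response genes summed to 4211 CPM against at most 739.8 CPM elsewhere. The 739.8 CPM belonged to vehicle replicate 2 of the same line. Line 1267B was sequenced in other requests than the remaining 4 lines.

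The targeted genes, Foxa1 (chr12:57540628-57546916, GRCm38) and Foxa2 (chr2:148042877-148046969), fell in the lines that carried their floxed allele. The lowest, median and highest values of Foxa1 in Foxa1-floxed organoids were 41.8, 58.2 and 80.3 CPM with vehicle and 13.9, 15.3 and 17.4 CPM with 4-OHT. Vehicle libraries of Foxa2-floxed organoids held 115 and 114 CPM in line 1267B and 99.2 and 65.8 CPM in line 1526C, and 4-OHT libraries 148 and 139.9 CPM in line 1267B and 135 and 141 CPM in line 1526C. The 4-OHT libraries of Foxa1-floxed organoids lay below all others without overlap, and 25.7% of the vehicle mean was left. The difference of effects for Foxa1 was -2.45 ± 0.20 (SE; edgeR quasi-likelihood test, Benjamini-Hochberg adjusted p = 5.65e-06).

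With vehicle, Foxa1-floxed libraries held 69.1, 160.3 and 175 CPM of Foxa2 (lowest, median and highest), and with 4-OHT 95.3, 146 and 177 CPM. Values in Foxa2-floxed organoids were 73.5 and 82.4 CPM in line 1267B and 122 and 112 CPM in line 1526C with vehicle, and 3.06 and 4.14 CPM in line 1267B and 1.93 and 2.15 CPM in line 1526C with 4-OHT. Only the Foxa2-floxed 4-OHT libraries were low, with 2.89% of the vehicle mean left. The difference of effects for Foxa2 was 5.24 ± 0.27 (SE; edgeR, adjusted p = 2.78e-08). The share of the targeted transcript left was thus lower in Foxa2-floxed than in Foxa1-floxed organoids. Gene counts also include exons outside the deleted part, whose extent the labels do not give, so transcript left over does not measure protein or the share of cells that recombined, and its part in the differences below was not tested.

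Other members of the regulatory group did not pass the test for a difference. Foxa3, the third FOXA gene, stood at 7.05 ± 8.14 with vehicle and 9.26 ± 10.7 CPM with 4-OHT in Foxa1-floxed organoids (SD, n = 6 per group, as for later Foxa1-floxed means). In Foxa2-floxed organoids its means were 15.7 ± 7.21 and 9.04 ± 4.62 CPM (SD, n = 4 per group, as for later Foxa2-floxed means), with a difference of 1.31 ± 0.38 (SE; edgeR, adjusted p = 0.239). Nkx2-1 stood at 245 ± 80.3 and 196 ± 33.9 CPM in vehicle and 4-OHT libraries of Foxa1-floxed organoids, and at 261 ± 32.8 and 219 ± 32.0 CPM in those of Foxa2-floxed organoids. Its difference of effects was -0.01, with a 95% interval from -0.54 to 0.52. In a bulk library, fewer cells of a type and less RNA per cell cannot be told apart, here and in what follows.

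**Figure D1:**
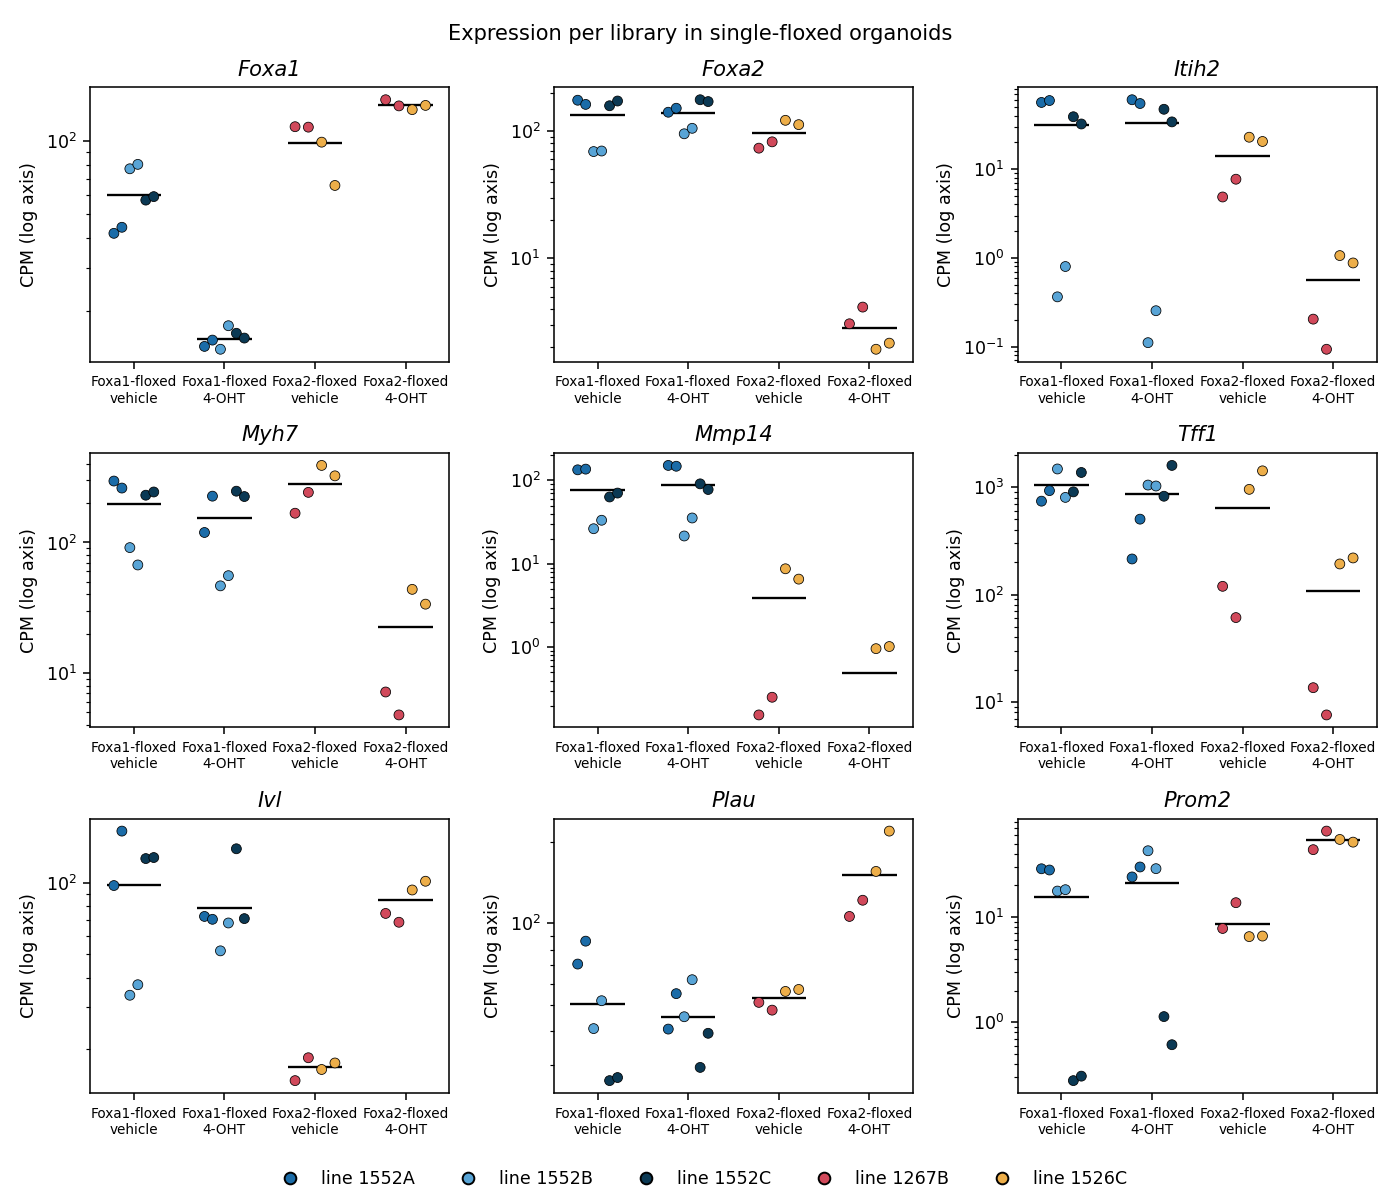
CPM (log axis) of Foxa1, Foxa2 and 7 genes called for the difference of effects, 1 point per library, coloured by organoid line, with the group mean as a line (libraries at 0 CPM are not drawn on the log axis). Foxa1 is low with 4-OHT in Foxa1-floxed organoids and Foxa2 in Foxa2-floxed organoids. Itih2, Myh7, Mmp14 and Tff1 are lower, and Ivl, Plau and Prom2 higher, with 4-OHT in the Foxa2-floxed lines.

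Across 16887 genes, the difference of effects was called for 45 at an adjusted p under 0.05, with 30 above 0 (0.178% of the genes tested) and 15 below 0 (0.0888%). All 30 genes above 0 fell in Foxa2-floxed organoids by the test of that effect alone, with a median effect of -2.73 against -0.07 in Foxa1-floxed organoids. Of the 15 below 0, 14 rose in Foxa2-floxed organoids, and the remaining gene was Foxa1 itself. The median effects of the 15 were 2.24 in Foxa2-floxed and -0.04 in Foxa1-floxed organoids, where the medians over all genes were -0.01 and 0.01. Of the 45 genes, only Foxa1 also passed the test of the effect in Foxa1-floxed organoids. Since these genes were picked by the difference itself, their medians describe them and are no test.

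These calls rest on libraries as replicates within lines. When counts were summed per line and treatment, so that 3 Foxa1-floxed lines met 2 Foxa2-floxed lines with 3 residual degrees of freedom, edgeR called 0 of 18384 genes, with a smallest adjusted p of 0.125 and 1071 genes at an unadjusted p under 0.05. All 45 genes had the same sign there and an unadjusted p under 0.05. The effects of single lines did not overlap between genotypes for 27 of the 30 genes above 0 and 14 of the 15 below 0. Over all genes tested, the corresponding shares were 10.6% and 11.3%, so the count among called genes is read against these, although the same libraries gave the calls.

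Each effect taken alone differed in extent. In Foxa1-floxed organoids 1 gene rose, Tcp11l1, and 1 fell, Foxa1, each being 0.00592% of the genes tested. Tcp11l1, named here because its group is so small, had effects of 1.51 in Foxa1-floxed (edgeR, adjusted p = 0.0298) and 0.35 in Foxa2-floxed organoids. In Foxa2-floxed organoids 319 rose (1.89%) and 261 fell (1.55%). The median standard error of an effect was 0.136 in Foxa1-floxed, 0.167 in Foxa2-floxed organoids and 0.215 for the difference, on the log2 scale. The 3 Foxa1-floxed lines therefore gave the smaller error and the fewer calls. The count for the effect in Foxa2-floxed organoids depends on the lines, since leaving out line 1526C gave 16 calls and leaving out line 1267B gave 1059. The Foxa1 count of 2 became 239 with DESeq2, so it depends on the tool.

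**Figure D2:**
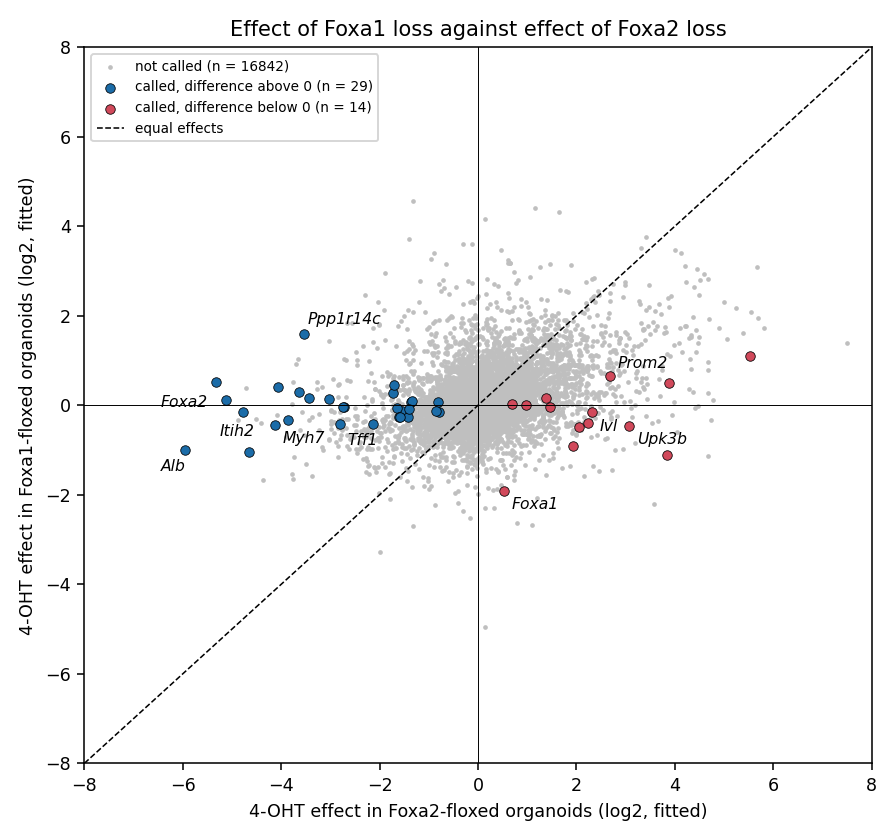
Fitted log2 effect of 4-OHT in Foxa1-floxed organoids (y axis) against that in Foxa2-floxed organoids (x axis), 1 point per gene. Most called genes lie nearer to the horizontal than to the vertical axis, with the larger effect in Foxa2-floxed organoids, and Foxa1 is the 1 called gene with the larger effect in Foxa1-floxed organoids. Ppp1r14c (1.59) and Abcc2 (1.11) lie above the horizontal axis, and 5430427O19Rik (-1.12), Pdlim3 (-1.05) and Alb (-0.99) below it. Fitted effects include a prior count, without which that of Ppp1r14c is 1.69. Blk and AI314278 are left out because a group held 0 counts.

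Among the genes with a difference above 0, Itih2 (chr2:10094593-10131396, GRCm38) encodes a heavy chain of the inter-alpha-trypsin inhibitor, a plasma protein that stabilises hyaluronan matrix. Itih2 stood at 0.364, 35.6 and 59.3 CPM (lowest, median and highest) in Foxa1-floxed vehicle libraries and at 0.111, 40.7 and 60.5 CPM in those with 4-OHT. The Foxa2-floxed libraries had 4.85 and 7.70 CPM in line 1267B and 22.9 and 20.5 CPM in line 1526C with vehicle, and 0.204 and 0.0933 CPM in line 1267B and 1.06 and 0.876 CPM in line 1526C with 4-OHT. Within each Foxa2-floxed line the 4-OHT libraries lay far below their vehicle libraries, while line 1552B held little Itih2 in either treatment. The difference was 4.63 ± 0.42 (SE; edgeR, adjusted p = 2.18e-05), and both Foxa2-floxed line effects lay below all 3 Foxa1-floxed ones.

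Mmp14 (chr14:54431612-54445364) encodes a membrane-anchored metalloproteinase that cleaves collagen and activates other metalloproteinases. In Foxa1-floxed organoids the lowest, median and highest vehicle libraries held 26.4, 66.9 and 137 CPM of Mmp14, against 21.6, 84.4 and 151 CPM with 4-OHT. In Foxa2-floxed vehicle libraries the values were 0.155 and 0.252 CPM in line 1267B and 8.74 and 6.57 CPM in line 1526C, and with 4-OHT they were 0 and 0 CPM in line 1267B and 0.964 and 1.02 CPM in line 1526C. The level was low in the Foxa2-floxed lines before treatment and was not detected with 4-OHT in line 1267B. The Mmp14 difference was 3.18 ± 0.30 (SE; edgeR, adjusted p = 2.96e-05), and without line 1526C, where the remaining Foxa2-floxed 4-OHT libraries held 0 counts, the adjusted p was 0.161 (range over all alternatives 4.03e-21 to 1). Mmp14 was the only 1 of 9 tested members of the matrix metalloproteinase list that was called.

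Myh6 (chr14:54941921-54966927) and Myh7 (chr14:54970684-54994626), neighbouring genes for the cardiac myosin heavy chains, fell together in Foxa2-floxed organoids. The lowest, median and highest values of Myh7 in Foxa1-floxed organoids were 67.2, 237 and 296 CPM with vehicle and 46.5, 172 and 247 CPM with 4-OHT. Vehicle libraries of Foxa2-floxed organoids held 168 and 242 CPM in line 1267B and 390.0 and 324 CPM in line 1526C, and 4-OHT libraries 7.14 and 4.76 CPM in line 1267B and 43.7 and 33.7 CPM in line 1526C. The Foxa2-floxed 4-OHT libraries lay below all other libraries. Myh6 fell from 30.7 ± 13.8 to 2.80 ± 2.55 CPM (SD, n = 4) in Foxa2-floxed organoids and stood at 24.3 ± 12.3 and 19.7 ± 10.9 CPM (SD, n = 6) in Foxa1-floxed ones. The differences were 3.68 ± 0.39 for Myh7 and 3.54 ± 0.37 for Myh6 (SE; edgeR, adjusted p = 2.03e-04 and 1.54e-04). The copies are alike in sequence, and no source used here says how the authors' counting treated reads that map to both, so the split of reads between them is uncertain.

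Tff1, a trefoil peptide of gastric mucus, was the called member of the gastric and intestinal list. With vehicle, Foxa1-floxed libraries held 740.2, 915 and 1477 CPM of Tff1 (lowest, median and highest), and with 4-OHT 214, 924 and 1593 CPM. Values in Foxa2-floxed organoids were 119 and 61.0 CPM in line 1267B and 954 and 1418 CPM in line 1526C with vehicle, and 13.6 and 7.56 CPM in line 1267B and 193 and 219 CPM in line 1526C with 4-OHT. Levels were far higher in line 1526C than in line 1267B, and in both lines the 4-OHT libraries were lower than vehicle. Line effects on the log2 scale were -3.15 in 1267B and -2.53 in 1526C, against -1.19, -0.17 and 0.07 in 1552A, 1552B and 1552C. The difference was 2.39 ± 0.45 (SE; edgeR, adjusted p = 0.0365).

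Further genes with a difference above 0 and non-overlapping line effects spanned several functions. R3hdml fell from 5.90 ± 5.97 to 0.463 ± 0.336 CPM (SD, n = 4) in Foxa2-floxed organoids, with a difference of 3.62. Hecw1, a HECT-type ubiquitin ligase, fell from 20.2 ± 22.9 to 3.37 ± 3.90 CPM, and nearly all of its reads in these lines came from 1526C. Flvcr2, a membrane transporter of the major facilitator superfamily, fell from 37.6 ± 42.2 to 4.56 ± 4.95 CPM. Man1c1, a Golgi mannosidase that trims N-linked glycans, fell from 22.5 ± 17.8 to 6.57 ± 4.80 CPM, and its Foxa1-floxed line effects ran from -0.38 in 1552A to 0.88 in 1552B. Ogfrl1 fell from 1.32 ± 0.668 to 0.287 ± 0.0234 CPM. The adjusted p-values of these 5 differences ran from 5.82e-05 to 0.0452 (edgeR). The same sign was seen for Fut8, which adds core fucose to N-linked glycans, Txndc5, an endoplasmic reticulum disulfide isomerase, Kif5c, a kinesin motor, and Rab3b, a GTPase of regulated secretion, with differences of 0.89, 0.65, 1.45 and 1.17 (adjusted p from 0.00394 to 0.0367). These 4 fall outside the rule for named genes and were chosen after their values were seen.

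Some calls rested on line 1526C because line 1267B held next to no reads of the gene. Kcnh1, a voltage-gated potassium channel, and Osr1, a zinc finger transcription factor, were at 0 CPM in all 4 libraries of line 1267B. Abcc2, an export pump for conjugated compounds, reached at most 0.0510 CPM in 1267B and rose from 0.328 and 0.467 CPM to 17.6 and 20.8 CPM in 1526C. These 3 were chosen after their values were seen. Alb, the gene of serum albumin, was read in Foxa2-floxed organoids at 0 and 0 CPM in line 1267B and 112 and 50.6 CPM in line 1526C with vehicle, and at 0.0510 and 0 CPM in line 1267B and 1.96 and 0.402 CPM in line 1526C with 4-OHT. Among Foxa1-floxed lines it did not exceed 0.147 CPM in 1552A and 1552B and was abundant in line 1552C, whose 4-OHT libraries held 84.0 and 37.2 CPM against 124 and 109.9 CPM with vehicle. The Alb difference of 4.99 (edgeR, adjusted p = 0.019) thus compared mainly 1552C with 1526C, and without line 1552C its adjusted p was 0.85 (range over all alternatives 8.79e-29 to 1). Cldn6, a tight junction claudin of embryonic epithelia, had values of 0.0516 and 0 CPM in line 1267B and 2.99 and 2.01 CPM in line 1526C in Foxa2-floxed vehicle libraries and 0 and 0.0311 CPM in line 1267B and 0.161 and 0.183 CPM in line 1526C with 4-OHT. It reached 422 CPM in line 1552C. The Cldn6 difference of 4.01 (adjusted p = 1.54e-04) had an adjusted p of 1 without line 1526C (range over all alternatives 2.92e-21 to 1).

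**Figure D3:**
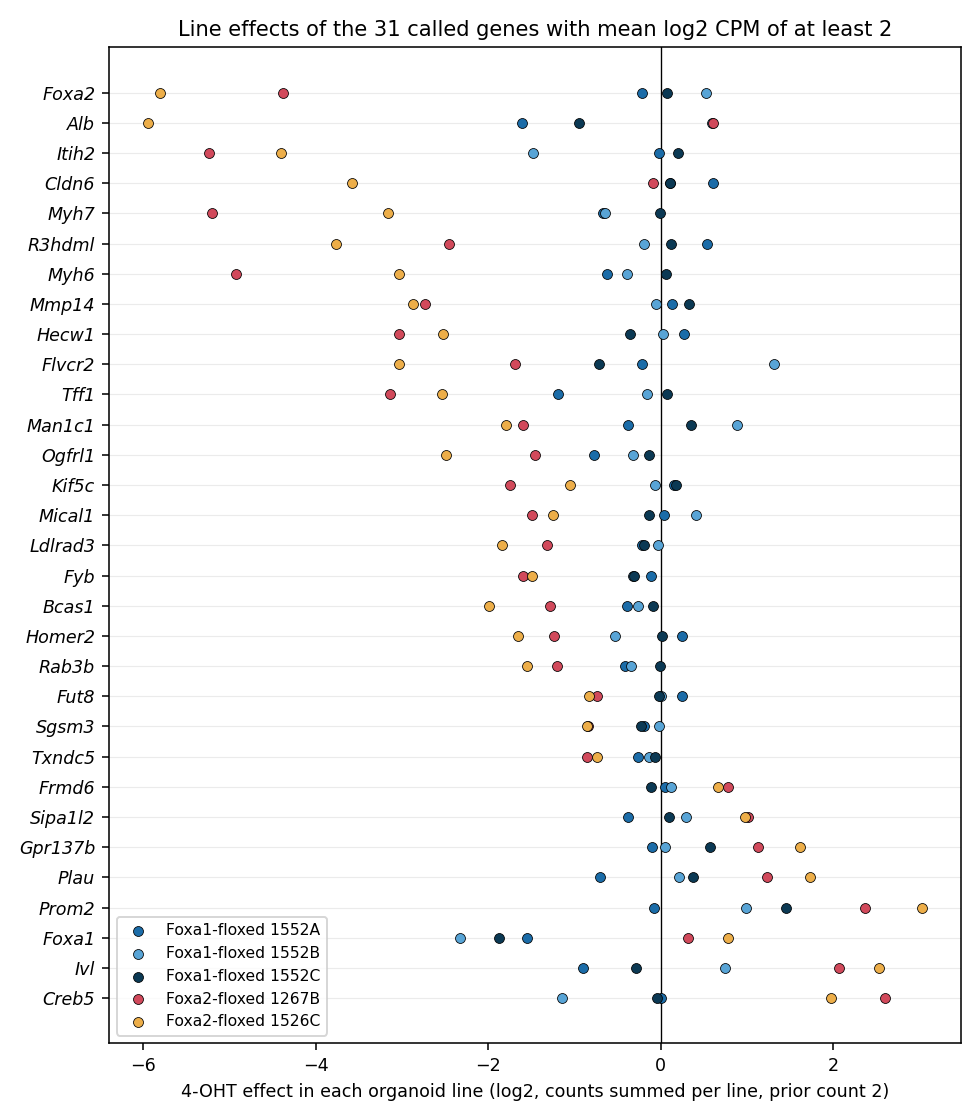
Log2 effect of 4-OHT in each organoid line for the 31 called genes with a mean log2 CPM of at least 2, ordered by the difference of effects. Blue points are the 3 Foxa1-floxed lines, and red and orange points are the Foxa2-floxed lines 1267B and 1526C. Alb and Cldn6 have red points at 0.61 and -0.10, far from their orange points at -5.95 and -3.58. Smaller gaps between the red and orange points are seen for other genes, among them Myh7 (-5.20 and -3.17) and Foxa2 (-4.38 and -5.80).

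Among the genes with a difference below 0, Ivl (chr3:92570902-92573735) encodes involucrin, a precursor of the cornified envelope of squamous epithelium. Ivl stood at 33.7, 112 and 165 CPM (lowest, median and highest) in Foxa1-floxed vehicle libraries and at 51.8, 70.5 and 139 CPM in those with 4-OHT. The Foxa2-floxed libraries had 14.8 and 18.4 CPM in line 1267B and 16.4 and 17.5 CPM in line 1526C with vehicle, and 74.4 and 68.3 CPM in line 1267B and 93.3 and 102 CPM in line 1526C with 4-OHT. In Foxa2-floxed organoids the 4-OHT libraries did not overlap the vehicle libraries, while in Foxa1-floxed organoids both groups overlapped. Vehicle levels also differed, since the highest Foxa2-floxed vehicle library lay below the lowest Foxa1-floxed one. The difference was -2.45 ± 0.35 (SE; edgeR, adjusted p = 0.00394). Ivl was the only 1 of 17 tested genes of the squamous and basal list called below 0, and none was called above 0. Krt14 and Krt16, keratins of basal and activated keratinocytes, rose in Foxa2-floxed organoids, and their effects were 1.24 in Foxa1-floxed and 2.75 in Foxa2-floxed organoids for Krt14 and 1.30 in Foxa1-floxed and 2.19 in Foxa2-floxed organoids for Krt16 (adjusted p of the difference 0.529 and 0.744).

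Prom2 (chr2:127526473-127541467) encodes a pentaspan protein of membrane protrusions. In Foxa1-floxed organoids the lowest, median and highest vehicle libraries held 0.279, 17.95 and 28.8 CPM of Prom2, against 0.612, 26.5 and 42.7 CPM with 4-OHT. In Foxa2-floxed vehicle libraries the values were 7.80 and 13.7 CPM in line 1267B and 6.52 and 6.60 CPM in line 1526C, and with 4-OHT they were 43.8 and 65.7 CPM in line 1267B and 54.8 and 51.6 CPM in line 1526C. All Foxa2-floxed 4-OHT libraries lay above all other libraries. The difference was -2.02 ± 0.36 (SE; edgeR, adjusted p = 0.0274), with Foxa1-floxed line effects of -0.08, 0.99 and 1.45. Prom2 therefore moved upward in 2 of the 3 Foxa1-floxed lines too, less far than in the Foxa2-floxed ones.

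Plau (chr14:20836660-20843385) encodes urokinase, the plasminogen activator of migrating cells. The lowest, median and highest values of Plau in Foxa1-floxed organoids were 26.3, 46.4 and 86.0 CPM with vehicle and 29.4, 43.0 and 62.0 CPM with 4-OHT. Vehicle libraries of Foxa2-floxed organoids held 51.1 and 47.9 CPM in line 1267B and 56.1 and 57.1 CPM in line 1526C, and 4-OHT libraries 106 and 122 CPM in line 1267B and 155 and 219 CPM in line 1526C. Only the Foxa2-floxed 4-OHT libraries exceeded 100 CPM. The difference was -1.51 ± 0.27 (SE; edgeR, adjusted p = 0.0273). Creb5, a basic leucine zipper transcription factor, rose from 0.682 ± 0.184 to 3.27 ± 1.70 CPM (SD, n = 4) in Foxa2-floxed organoids and stood at 10.4 ± 4.96 and 7.30 ± 2.13 CPM in Foxa1-floxed ones, so that its mean after Foxa2 loss was still below both of those means.

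Smaller rises after Foxa2 loss were seen in genes with nearly equal values in Foxa1-floxed organoids. Gpr137b, a lysosomal membrane protein, rose from 33.6 ± 4.77 to 88.1 ± 18.1 CPM, Sipa1l2, of a family of Rap GTPase-activating proteins, from 18.4 ± 4.23 to 36.2 ± 7.28 CPM, and Frmd6, a FERM-domain protein linked to the Hippo pathway, from 27.5 ± 7.09 to 44.1 ± 9.79 CPM. In Foxa1-floxed organoids the same genes went from 46.2 ± 17.03 to 50.6 ± 10.8 CPM, from 30.5 ± 4.47 to 30.9 ± 5.49 CPM and from 42.0 ± 6.30 to 42.5 ± 3.72 CPM. Their differences were -1.20, -0.98 and -0.67 (edgeR, adjusted p = 0.0363, 0.0158 and 0.0363). For Blk, a Src-family kinase best known from B cells, all 4 Foxa2-floxed vehicle libraries held 0 counts and the 4-OHT libraries held 2.45 and 2.27 CPM in line 1267B and 4.28 and 7.56 CPM in line 1526C. Foxa1-floxed libraries had at most 0.369 CPM of Blk, and no fold is given against the group at 0.

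Effects of opposite sign in both genotypes, each at an unadjusted p under 0.05, were found for 4 called genes. Foxa1 itself fell in Foxa1-floxed organoids and had an effect of 0.54 in Foxa2-floxed ones, where each line's value was above 0 (adjusted p = 0.0644). Ppp1r14c, an inhibitor of protein phosphatase 1, was read at 1.91 and 1.39 CPM in line 1267B and 8.86 and 12.6 CPM in line 1526C with vehicle and at 0.306 and 0.218 CPM in line 1267B and 0.579 and 0.621 CPM in line 1526C with 4-OHT in Foxa2-floxed organoids. Foxa1-floxed libraries had at most 0.465 CPM of it, so its effect of 1.69 there rests on 8 counts with vehicle and 30 with 4-OHT. Ptpn22, a tyrosine phosphatase best known from lymphocytes, went from 1.04 ± 0.834 to 0.547 ± 0.387 CPM in Foxa1-floxed and from 0.437 ± 0.401 to 1.62 ± 1.42 CPM in Foxa2-floxed organoids. 5430427O19Rik stayed below 0.5 CPM in every library. Apart from Foxa1, none of the 4 passed the test in Foxa1-floxed organoids alone.

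The remaining called genes were of low level or small difference, and their differences are listed with the other results set apart after the report. Among all 30 genes above 0, the vehicle mean was under 1 CPM for 4 in Foxa1-floxed and for 1 in Foxa2-floxed organoids. Among the 15 below 0 it was under 1 CPM for 4 and 8. Just inside the threshold were Sgsm3 and AI314278 (adjusted p = 0.0485 and 0.0493), and just outside were Glrp1 (0.0514), Ttr (0.0567) and Tmem56 (0.0575).

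Promoters of called genes were read for the letters that forkhead factors are known to bind, since 30 of these genes fell together after Foxa2 loss. The windows of 250 bases before and 50 after each start came from RefSeq (GRCm38.p6), and 36 of the 45 genes had an entry. Searched on both strands were the forkhead motif TGTTTAC, found in 3.65% of all promoters of the RefSeq set, the variant TATTTAC, found in 3.04%, and the variant TGTTTGC, found in 5.07%. The windows printed hold at most 1 match, so no matches overlap in them. The first line shows Alb (chr5:90460620-90460919, plus strand), which fell after Foxa2 loss and holds a match in capitals. The second shows Foxa1 (chr12:57546062-57546361, minus strand), the gene with a difference below 0 for its own deletion, also with a match in capitals, and the third shows Itih2 (chr2:10130634-10130933, minus strand), a called gene with no match. Capitals on these lines show the reverse complement of a motif, as read on the gene's strand.
Alb: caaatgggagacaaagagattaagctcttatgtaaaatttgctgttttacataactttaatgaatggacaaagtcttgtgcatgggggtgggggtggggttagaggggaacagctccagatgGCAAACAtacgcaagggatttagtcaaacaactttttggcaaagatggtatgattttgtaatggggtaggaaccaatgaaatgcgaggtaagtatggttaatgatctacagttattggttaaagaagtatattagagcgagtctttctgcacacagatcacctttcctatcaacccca
Foxa1: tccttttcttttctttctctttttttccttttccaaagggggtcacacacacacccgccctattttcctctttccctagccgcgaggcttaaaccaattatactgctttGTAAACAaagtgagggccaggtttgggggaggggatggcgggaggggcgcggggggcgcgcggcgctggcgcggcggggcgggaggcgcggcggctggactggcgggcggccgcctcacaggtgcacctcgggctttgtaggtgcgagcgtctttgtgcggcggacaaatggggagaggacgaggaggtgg
Itih2: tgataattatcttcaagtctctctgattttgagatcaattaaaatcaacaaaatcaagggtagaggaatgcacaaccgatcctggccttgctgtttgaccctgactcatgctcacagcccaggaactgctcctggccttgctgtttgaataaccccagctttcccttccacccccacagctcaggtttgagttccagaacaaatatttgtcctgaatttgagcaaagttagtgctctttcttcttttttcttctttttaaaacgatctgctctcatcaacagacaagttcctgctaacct
Among called genes with an entry, 2 of 24 above 0 (Alb and Fut8) and 2 of 12 below 0 (Foxa1 and Ptpn22) held a motif in at least 1 promoter, which is 8.33% and 16.7%. Over all genes tested with an entry the share was 9.54%, and 11.2% of all promoters in the RefSeq set held one.  A match is a description of the letters, and its absence says nothing of binding elsewhere.

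Gene lists were described by counts and medians, and 7 of the 34 lists had a member called for the difference. Besides the lists of FOXA genes, squamous, gastric and metalloproteinase genes, these were the liver-type plasma proteins (Itih2 and Alb of 19 tested), alveolar type 2 genes (Ppp1r14c of 29) and epithelial junction genes (Cldn6 of 21). Over all genes the median difference was 0.02, and 52.2% of the differences were above 0. Of all genes tested, 0.178% were called above 0 and 0.0888% below 0.

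Liver-type plasma protein genes, many of them known targets of FOXA factors in hepatocytes, had a median effect of 0.14 in Foxa1-floxed and -0.77 in Foxa2-floxed organoids, and 13 of 19 differences were above 0. In Foxa2-floxed organoids 6 fell and 2 rose by the test of that effect, where 1.55% and 1.89% of all genes tested did so. Ttr, the thyroid hormone carrier transthyretin, had effects of 0.54 in Foxa1-floxed and -2.25 in Foxa2-floxed organoids, with an adjusted p of the difference of 0.0567. Trf, transferrin, had -1.53 in Foxa1-floxed and -3.78 in Foxa2-floxed organoids, and Rbp4, the retinol carrier, -0.58 in Foxa1-floxed and -2.06 in Foxa2-floxed organoids. Apob and C3 went the other way, with effects of 3.28 and 2.41 in Foxa2-floxed organoids. Without line 1526C the median in Foxa2-floxed organoids was 0.24 and the median difference fell from 0.91 to 0.07.

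Alveolar type 2 genes had median effects below 0 in both genotypes, at -0.43 in Foxa1-floxed and -0.72 in Foxa2-floxed organoids, and 11 of 29 fell on the average of both effects, against 290 of 16887 over all genes (1.72%). That count was 1 without line 1526C, 4 without 1552C and 5 without 1552A, where all genes gave 26, 139 and 167. Effects above 0 were seen for 2 of 29 in Foxa1-floxed and 5 of 29 in Foxa2-floxed organoids, against 51.9% and 48.9% of all genes. In Foxa2-floxed organoids alone 9 fell (1.55% of all genes tested), and none did in Foxa1-floxed organoids (0.00592% of all genes). The surfactant gene Sftpc had effects of -0.53 in Foxa1-floxed and -2.31 in Foxa2-floxed organoids (adjusted p of the difference 0.535), and Cxcl15, a chemokine of alveolar type 2 cells, -0.30 in Foxa1-floxed and -2.47 in Foxa2-floxed organoids (0.258). Lpcat1, which makes surfactant phospholipid, had -0.51 in Foxa1-floxed and -1.24 in Foxa2-floxed organoids. The median difference was 0.13, and only Ppp1r14c was called.

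Gastric and intestinal genes had medians of 0.12 in Foxa1-floxed and -0.35 in Foxa2-floxed organoids, and 21 of 28 differences lay above 0. Beside Tff1, the gastrokine Gkn1 had effects of 1.62 in Foxa1-floxed and -0.58 in Foxa2-floxed organoids, the mucin-folding isomerase Agr2 0.52 in Foxa1-floxed and -3.28 in Foxa2-floxed organoids, and the progastricsin gene Pgc 0.73 in Foxa1-floxed and -2.19 in Foxa2-floxed organoids. The adjusted p-values of these 3 differences were 0.106, 0.106 and 0.114, outside the threshold. The regulator Hnf4a had a difference of 0.52 (0.616).

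Airway secretory genes had the largest median difference above 0 among the 24 lists with at least 5 tested genes and no call, at 0.79 (0.54 in Foxa1-floxed against -0.59 in Foxa2-floxed organoids). Bpifb1, a secreted lipid-binding protein of airway glands, had effects of 1.84 in Foxa1-floxed and -2.57 in Foxa2-floxed organoids (adjusted p of the difference 0.0669). The secretoglobin Scgb3a1 had 1.34 in Foxa1-floxed and -2.35 in Foxa2-floxed organoids (0.18). Without line 1267B the median difference turned to -0.49, so its direction rested on that line.

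Mast cell type proteases lay at the other end, with a median difference of -2.47. All 6 tested genes had a difference below 0 at an unadjusted p under 0.05 and none was called, while 5 of the 6 rose in Foxa2-floxed organoids. Of all 16887 genes tested, 1347 reached that unadjusted p in either direction, and 1.89% rose in Foxa2-floxed organoids. With vehicle, Foxa1-floxed libraries held 0.513, 3.84 and 9.39 CPM of Mcpt1 (lowest, median and highest), and with 4-OHT 1.90, 6.07 and 32.5 CPM. Values in Foxa2-floxed organoids were 1.34 and 1.93 CPM in line 1267B and 0.943 and 1.47 CPM in line 1526C with vehicle, and 11.8 and 12.2 CPM in line 1267B and 71.1 and 62.3 CPM in line 1526C with 4-OHT. Mcpt1 was therefore higher with 4-OHT in each Foxa2-floxed pair of libraries, and in lines 1552A and 1552C of the Foxa1-floxed ones it was also higher than in vehicle libraries. Its difference was -2.77 ± 0.69 (SE; edgeR, adjusted p = 0.179). The leukocyte markers moved in the same direction, with all 7 tested differences below 0 and 2 members, Csf1r and Itgam, rising in Foxa2-floxed organoids, while Ptprc reached at most 1.17 CPM. Their part in the result was not tested. Without line 1526C, 2 of the 6 proteases had an unadjusted p under 0.05. Reads of the Mcpt copies are alike, so their split between genes is uncertain.

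Interferon response genes had medians of 1.25 in Foxa1-floxed and 3.15 in Foxa2-floxed organoids, with 25 of 28 differences below 0 and none called. Without Foxa2-floxed 4-OHT replicate 2 the median in Foxa2-floxed organoids was 1.62 and the median difference moved from -1.44 to -0.52. Antigen presentation genes had all 15 differences below 0 and a median of -0.85, which became -0.26, with 4 of 15 above 0, without that library. Leaving out line 1267B as a whole, with that library in it, gave median differences of -2.38 for interferon response and -0.65 for antigen presentation genes. The summed interferon level in the other Foxa2-floxed 4-OHT libraries was 224 CPM in line 1267B and 186 and 601 CPM in line 1526C. Foxa2-floxed vehicle libraries held 178 and 739.8 CPM in line 1267B and 114.1 and 114.4 CPM in line 1526C. Over all Foxa1-floxed libraries it ran from 94.0 to 298 CPM.

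Xenobiotic metabolism genes had a median difference of -0.45, and 10 of 25 reached an unadjusted p under 0.05 with none called. Over all genes tested, 1347 of 16887 reached it. Ephx1, microsomal epoxide hydrolase, went from 30.9 ± 13.2 to 35.8 ± 13.8 CPM in Foxa1-floxed and from 15.8 ± 14.4 to 49.3 ± 32.8 CPM in Foxa2-floxed organoids (difference -1.72, edgeR adjusted p = 0.0872). Gsta2, a glutathione transferase, had effects of 0.10 in Foxa1-floxed and 1.85 in Foxa2-floxed organoids. Without line 1526C the list's median difference was -0.05.

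Lists without a called member also included embryonic lung tip genes, where Foxp2 had the smallest p with a difference of 1.64 (adjusted p = 0.155). The others were alveolar type 1, hedgehog and BMP, placental type, NF-kB and chemokine, MAPK feedback, EGF family, Wnt target, YAP and TEAD target, mesenchymal transition, extracellular matrix, lipid synthesis, cell cycle, hypoxia and glycolysis, unfolded protein response, neuroendocrine, ciliated, fibroblast, endothelial, leukocyte, tumour epithelium and mitochondrially encoded genes. Some lists had close medians in both genotypes, as for lipid synthesis (-0.32 and -0.33), hypoxia and glycolysis (-0.51 and -0.49) and cell cycle genes (0.18 and 0.13), in Foxa1-floxed and Foxa2-floxed organoids. On the average of both effects 1 lipid synthesis gene fell and no hypoxia or cell cycle gene passed the test. The median difference of hypoxia and glycolysis genes was 0.53 without line 1267B and -0.36 without line 1526C, and that of cell cycle genes ran from -0.11 without line 1552A to 0.24 without line 1552C. Placental type genes had median effects of 1.97 in Foxa1-floxed and 3.31 in Foxa2-floxed organoids over 5 genes. The Foxa1-floxed median was 0.85 without line 1552A, 3.17 without 1552B and 1.43 without 1552C. In line 1552B the summed level was 23.9 and 29.6 CPM with vehicle and 7.86 and 28.6 CPM with 4-OHT. Without line 1526C the Foxa2-floxed median was 2.09. Among the 7 leukocyte markers tested, all differences were below 0 with a median of -0.87. In Foxa1-floxed organoids the summed level of all 15 ran from 48.0 to 91.2 CPM with vehicle and 47.1 to 83.2 CPM with 4-OHT. The Foxa2-floxed ranges were 27.1 to 144.6 CPM with vehicle and 44.8 to 140.7 CPM with 4-OHT. Both of these highest values were those of replicate 2 (line 1267B). The part of such cells in the differences was not tested.

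**Figure D4:**
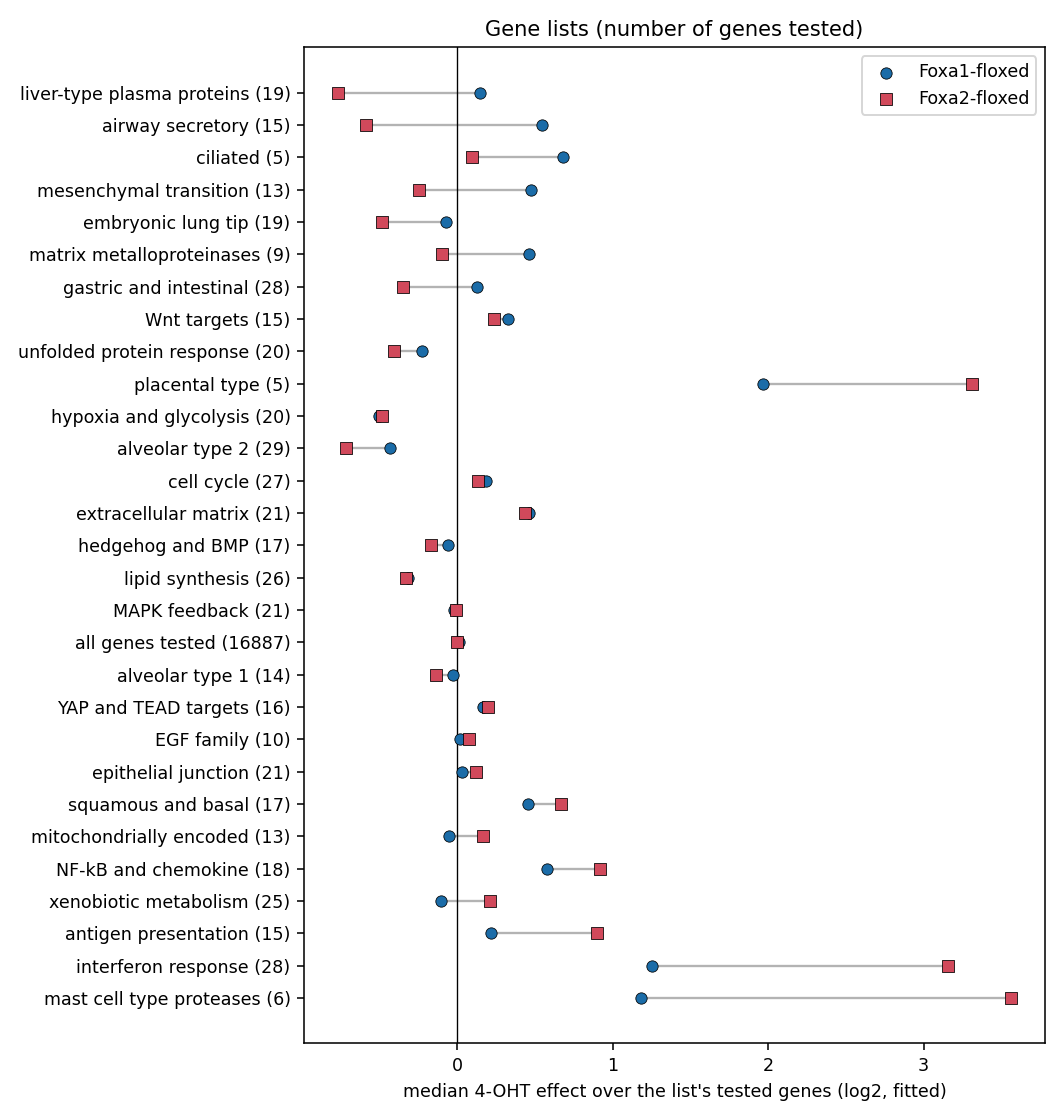
Median log2 effect of 4-OHT for gene lists with at least 5 tested genes, in Foxa1-floxed (circles) and Foxa2-floxed organoids (squares), ordered by the median of the gene-wise differences, which need not equal the gap between both medians. The leukocyte and tumour epithelium markers, with median differences of -0.87 and -0.13, are not drawn. Plasma protein and airway secretory genes lie at the top and mast cell type proteases at the bottom.

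More genes were called on the average of both effects than on their difference. By construction the average has the smaller standard error (0.21 against 0.42 for Itih2). A large effect in 1 genotype can also pass its test, as for Itih2 with -0.16 in Foxa1-floxed and -4.78 in Foxa2-floxed organoids. These counts therefore do not measure shared against separate change. On the average of both effects 475 genes rose (2.81%) and 290 fell (1.72%), and 39 of these 765 were also called for the difference. For 178 of the 498 with a mean log2 CPM of at least 2, the 95% interval of the difference lay within -1 to 1, 82 rising and 96 falling. Over all genes of that level it did so for 8784 of 11151, so the share among genes called on the average was below that over all genes. Ablim1, an actin-binding LIM protein, went from 58.3 ± 53.8 to 104 ± 78.4 CPM in Foxa1-floxed and from 27.2 ± 21.9 to 50.7 ± 35.8 CPM in Foxa2-floxed organoids, with effects of 0.92 and 0.96. Cuedc1 had effects of 0.73 and 0.95. Map3k14, the NF-kB-inducing kinase, had 0.82 and 0.95, and Card10, a scaffold of NF-kB signalling, 0.77 and 0.88. Both were highest among Foxa2-floxed 4-OHT libraries in replicate 2 (17.3 and 65.1 CPM). Shisa4 and the transcription factor gene Myrf also rose on the average, and Usp29 and Gm6166, annotated as a processed pseudogene, fell. Their average effects were 0.90, 1.05, -1.45 and -0.93. The bound of 1 on the interval is near the size of most of these effects, so it does not show equal effects in both genotypes. Usp29 counts came from lines 1552C and 1526C only.

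Over 11151 genes with a mean log2 CPM of at least 2, the Foxa1-floxed and Foxa2-floxed effects correlated with a Pearson coefficient of 0.501 and a Spearman coefficient of 0.354. These are across genes, which are not independent replicates, and the libraries share 1 normalisation. Of the 765 genes called on the average, 651 had the larger effect in Foxa2-floxed organoids, as did 9571 of all 16887 genes tested.

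The called genes were then followed in organoids with both Foxa1 and Foxa2 floxed (lines 1027B, 1027D and 1292B, 5 vehicle and 5 4-OHT libraries, with the other alleles and the treatment as above), which share no library with the comparison above. There 302 of 15198 genes rose (1.99%) and 290 fell (1.91%). Of the 30 genes above 0, 27 were tested in double-floxed organoids, 15 fell and none rose, with a median effect of -2.75. Of the 15 below 0, 13 were tested, 5 rose and 1 fell (Foxa1), with a median of 1.45, where the median over all genes tested in both tables was 0.01. Foxa2 itself is among the 15 that fell.

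Itih2 fell in every double-floxed pair of libraries, where vehicle replicates 1 to 5 held 9.65, 138, 1.64, 27.9 and 115 CPM and 4-OHT replicates 0, 0.0496, 0, 0.0447 and 0.0576 CPM (edgeR, adjusted p = 3.45e-04). Myh7 went from 69.0, 261, 51.2, 149 and 176 CPM to 0.0979, 0.0992, 0.282, 0 and 0.0288 CPM (adjusted p = 8.76e-04). Tff1 went from 9.97, 105, 867, 1607 and 97.9 CPM to 0.0979, 0.0496, 1.69, 2.15 and 0.374 CPM (0.0135). With 4-OHT these genes were at or near 0 in all 5 libraries, lower than in the Foxa2-floxed organoids. That difference in depth of the fall was not tested, since the tables were normalised separately.

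Prom2 rose from 0.422, 1.09, 66.9, 1.34 and 0.723 CPM to 12.8, 78.1, 155, 38.8 and 65.6 CPM (edgeR, adjusted p = 0.0231), and Ivl, Plau and Frmd6 rose as well, with effects of 2.01, 2.76 and 1.88. Mmp14 did not pass the test there, with vehicle values of 5.43, 0.109, 25.5, 4.81 and 0.0452 CPM and 4-OHT values of 1.71, 0.0496, 28.3, 1.52 and 0.115 CPM (adjusted p = 0.353). Cldn6 had values of 83.5, 0.109, 0.848, 182 and 1.08 CPM and 81.7, 0.694, 2.31, 261 and 0.777 CPM. Mmp14 was lower with 4-OHT in both pairs of line 1027B (replicates 1 and 4) and about level in line 1292B (replicate 3), and Cldn6 had no common direction.

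**Figure D5:**
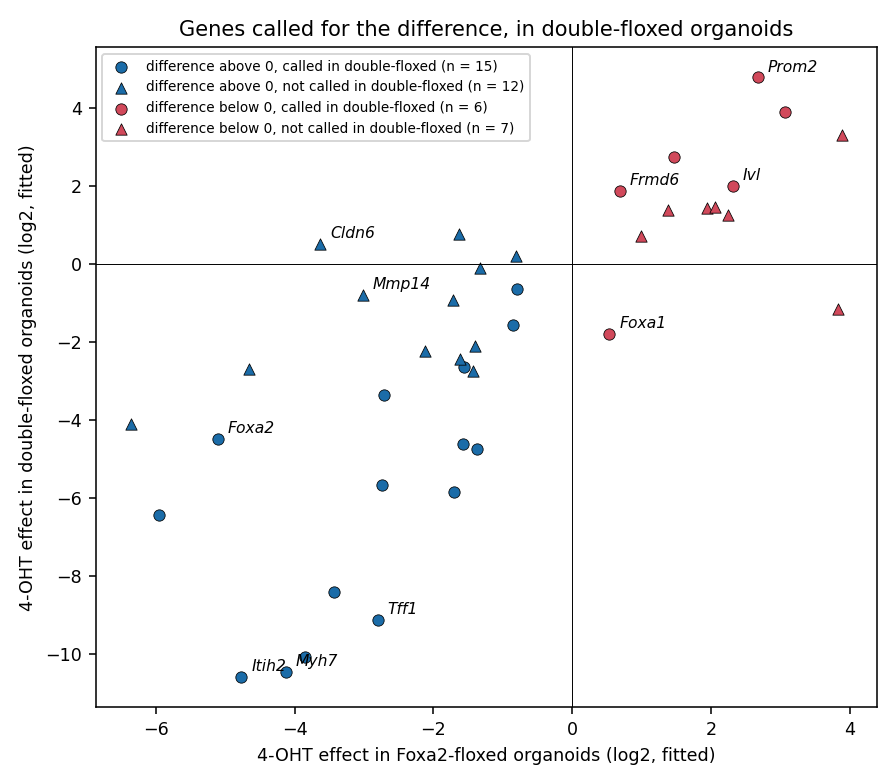
Fitted log2 effect of 4-OHT in double-floxed organoids (y axis) against that in Foxa2-floxed organoids (x axis) for the 40 called genes tested in both tables. Blue marks a difference above 0, red a difference below 0, circles genes called in double-floxed organoids and triangles those not called. Most blue points lie at the lower left and most red points at the upper right, and Foxa1 and Cldn6 are among the exceptions. Effects beyond -9 belong to genes near 0 CPM with 4-OHT.

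Seen from the other side, genes that changed in double-floxed organoids had a larger median effect in Foxa2-floxed than in Foxa1-floxed organoids. The 270 that rose there and were tested had medians of 0.27 in Foxa1-floxed and 0.75 in Foxa2-floxed organoids. By the test in Foxa2-floxed organoids 77 of them rose, against 1.89% of all genes tested. The 287 that fell had medians of -0.18 and -0.57. Of these, 85 fell in Foxa2-floxed organoids, against 1.55% of all genes tested. In Foxa1-floxed organoids 1 fell, Foxa1, against 0.00592%. For the difference itself, 5 of the 270 were called below 0, against 0.0888% of all genes tested. Of the 287, 15 were called above 0, against 0.178%, and 1 (Foxa1) below 0. These are the genes already counted above as called for the difference and changed in double-floxed organoids, so the counts repeat that overlap. Foxa2, itself deleted, is among the 287, the 85 and the 15. The 270 and 287 genes were chosen on the double-floxed libraries, none of which is in the single-floxed comparison. Those libraries came from the same sequencing requests as the Foxa2-floxed line that was sequenced apart from the other single-floxed lines. No Foxa1-floxed library came from these requests. Whether the shared requests favour the Foxa2-floxed effects was not tested, so the counts are not read as fully independent of the choice.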

How the data were processed

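Bulk RNA was sequenced from 20 single-floxed and 10 double-floxed organoid libraries, made with a directional kit per the labels' protocols. The authors deposited whole-number read counts for each Ensembl gene ID, without normalisation. Per the submitters' processing notes, STAR 2.7.6a, featureCounts 1.5.1, DESeq2 and the build GRCm38 were used, with no role given for any of them. No source used here gives the strand setting or how reads with several positions were counted. Gene symbols and coordinates were taken from the GENCODE vM21 annotation of GRCm38. The hairpin libraries of the series were not used here. A further allele that all lines share is not reported here.

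The 20 libraries were fitted together by edgeR 4.0.16 under R 4.3.3, using its quasi-likelihood F test after filterByExpr and TMM scaling, with organoid line as a block and 1 treatment effect per genotype. Genes were called at a Benjamini-Hochberg adjusted p under 0.05. "Rose" and "fell" denote called effects. Intervals are at 95%, and line effects used counts summed per line with a prior count of 2. The fit was run on simulated data in which libraries were drawn independently and each set effect was equal in every line. Such data cannot show how the test behaves where effects differ between lines. Vehicle and 4-OHT libraries of a line deviated together (r from 0.834 to 0.898, a single value for the pair of Foxa2-floxed lines), and the labels give the line. Separate cultures are not stated for repeat libraries, so p-values measure the spread between libraries, which may be technical. Alternatives were RLE scaling, DESeq2 1.42.0, all genes kept whatever their counts, a log2 size of at least 1, counts summed per line, other blocks, each genotype fitted alone, and leaving out each library or line.

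Named were Foxa1, Foxa2, Foxa3 and Nkx2-1. Then came up to 12 called genes per direction by largest difference (mean log2 CPM of at least 2, unadjusted p under 0.05 in the fit of summed counts, line effects not overlapping between genotypes). Up to 4 called members per list were added, or else the member with the smallest p, then up to 6 called genes of opposite effects, and up to 8 called on the average with an interval of the difference within -1 to 1. Other members of a list that are described were chosen after their values were seen. The members and lists were chosen with earlier results of these data known.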

Additional observations from a re-analysis of the deposited data

Results flagged for a closer look

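The difference of effects passed the test for 45 genes, which is what set them apart here. Besides the values given in the report, the log2 differences above 0 were 5.24 for Foxa2, 4.63 for Itih2, 3.18 for Mmp14, 3.62 for R3hdml, 4.01 for Cldn6, 3.54 for Myh6, 3.68 for Myh7, 4.57 for Kcnh1, 1.45 for Kif5c, 2.01 for Man1c1, 5.25 for Ppp1r14c, 1.42 for Ldlrad3, 2.69 for Flvcr2, 4.99 for Alb, 6.13 for Osr1, 2.74 for Hecw1, 0.89 for Fut8, 1.59 for Gm19705, 1.17 for Rab3b, 2.18 for Vipr2, 1.36 for Fyb, 2.39 for Tff1, 0.65 for Txndc5, 1.33 for Bcas1, 1.71 for Ogfrl1, 1.42 for Mical1, 1.32 for Homer2, 3.70 for Pdlim3 and 0.72 for Sgsm3. Those below 0 were -2.45 for Foxa1, -2.45 for Ivl, -3.57 for Upk3b, -0.98 for Sipa1l2, -3.40 for Bdkrb2, -1.51 for Plau, -2.02 for Prom2, -2.86 for Ptpn22, -1.20 for Gpr137b, -0.67 for Frmd6, -5.48 for 5430427O19Rik, -2.66 for Creb5, -2.57 for Crispld2 and -4.38 for Abcc2. Blk and AI314278 were called with a group at 0 counts, with adjusted p of 0.0166 and 0.0493, and get no fold. Fitted differences of genes with a group of few counts, such as Osr1 with 3 counts over the Foxa2-floxed 4-OHT libraries, depend on the prior count.

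In 13 of 244 sets of libraries, each a named gene in 1 group, the highest or lowest library lay apart from the rest of its group by Dixon's test. The test's rate of about 1 in 20 holds for independent libraries. Each group held repeat libraries of a line, so the count is not read against that rate. Foxa2-floxed 4-OHT replicate 2 was the highest of 4 for Col6a1 (3.52 CPM), Map3k14 (17.3 CPM), Card10 (65.1 CPM) and Nlrc5 (19.2 CPM). In Foxa1-floxed 4-OHT libraries the highest of 6 was replicate 3 for Col6a1 (2.55 CPM), replicate 2 for Vwf (4.13 CPM), replicate 4 for Cd68 (35.1 CPM) and replicate 5 for Ivl (139 CPM). In Foxa2-floxed vehicle libraries, replicate 1 was highest for Bpifb1 (45.2 CPM), replicate 4 for Insm1 (3.91 CPM) and replicate 3 for 5430427O19Rik (0.0410 CPM), while replicate 3 was lowest for Tgfa (42.4 CPM). Foxa1-floxed vehicle replicate 2 was highest for mt-Nd4l (10.8 CPM). No explanation was tested for these libraries.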

How the results depend on the processing

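The 45 calls for the difference of effects kept their sign under RLE scaling (39 still called), DESeq2 (42), no filter on low counts (44) and a block of line and sequencing request (44). The number called was 205 with DESeq2, 728 without a filter, 73 with the replicate block of line and request, 2 without a replicate block and 0 with counts summed per line. Leaving out a line or library gave 9 to 261 calls. The lowest was without line 1526C and the highest without line 1267B, and without lines 1552A and 1552C it was 22 and 21. It was 73 without Foxa2-floxed 4-OHT replicate 1, and 18 to 28 without vehicle replicates 3 or 4 or 4-OHT replicates 3 or 4 of Foxa2-floxed, or vehicle replicates 1, 5 or 6 or 4-OHT replicates 2, 3, 5 or 6 of Foxa1-floxed organoids. The fitted Alb difference was -3.37 (adjusted p of 1) without line 1526C, which leaves line 1267B at 0 counts with vehicle and is no measure of direction, and it was up to 6.42 on leaving out a library. For the effect in Foxa1-floxed organoids, the 2 calls became 239 with DESeq2, 1141 without a filter, 10 with line and request, 1 without a replicate block, 0 with summed counts, and 1 to 29 on leaving out a line or library. The 580 for the effect in Foxa2-floxed organoids became 981, 1816, 914, 5 and 73 in the same order, 133 fitted alone, and 16 to 1059. The 765 on the average of both effects became 1338, 2183, 1162, 3 and 55, 428 at a log2 size of at least 1, and 50 to 1369. The 592 for the effect in double-floxed organoids became 1835 with DESeq2, 2391 without a filter, 1783 with line and request, 82 without a replicate block, and 228 to 575 without a library. The causes of these changes were not tested. With 2 Foxa2-floxed lines and 3 residual degrees of freedom over lines, the number of tumours limits what the difference can show. Depth limits genes of low level, such as those with a group of few counts.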
